A study of Schizosaccharomyces pombe with 32 samples.

Results

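The genes described here make, export, sense and remove the mating pheromones of fission yeast (Schizosaccharomyces pombe), or carry the pheromone signal inward. They are mfm1, mfm2, mfm3, map2, mam2, map3, mam1, sxa2, gpa1 and ste6, taken by symbol from the probe-to-gene table, and each of the 10 had 1 probe set among the 4972 on the arrays. The strain was JB50, homothallic (h90), grown as batch cultures in rich YES medium. The stressed series held 2 cultures that received 0.5 mM hydrogen peroxide and were sampled before it (0 min), early after it (5, 10, 15 and 30 min), then at 50, 60 and 90 min, and late (120, 180 and 240 min). For treated cultures the protocol gives 2 starting densities and does not say which the arrayed ones had. The untreated series held 2 other cultures of the same strain, in exponential growth by the labels and without peroxide, sampled at 0, 60, 120, 180 and 240 min. Every array is 1 culture at 1 time, which gives 22 stressed and 10 untreated arrays.

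Fission yeast cells are of mating type P or M, and a homothallic culture holds both, because cells switch type as they divide. M cells secrete the lipid-modified peptide M-factor and P cells secrete the peptide P-factor. Each type carries a receptor for the other's pheromone, and both receptors act through a G protein and a MAP kinase cascade that also needs Ras1. Most of these genes are known to be low in rich medium and to be turned on, through the transcription factor Ste11, when nutrients run short. M-factor is encoded by mfm1, mfm2 and mfm3, and P-factor by map2. Mam2 is the P-factor receptor of M cells and Map3 the M-factor receptor of P cells. Mam1 exports M-factor, Sxa2 is a carboxypeptidase that breaks down P-factor, Gpa1 is the G protein alpha subunit behind both receptors, and Ste6 is the exchange factor that activates Ras1.

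Values are the signal per probe set on a linear scale, as deposited, and a change is a difference of log2 signals. Array medians ran from 1.68 to 1.82 in stressed culture 1, from 1.52 to 1.63 in stressed culture 2, from 1.95 to 2.0 in untreated culture 1 and from 1.71 to 1.82 in untreated culture 2. The detection limit is unknown, and the mean log2 signals of the 10 probe sets lay between the 2.27th and the 35.4th percentile of all probe sets, so folds from the lowest signals have no known bound. The signals of different genes are not set against each other. Some stressed arrays stood apart from their labels' neighbours. Across probe sets, the changes of culture 1 at 10 min and culture 2 at 5 min correlated at r = 0.77, against 0.50 for 10 min in both cultures and 0.35 for 5 min in both. The stressed 30 min array of culture 2 reached at most r = 0.909 with another array, whereas the other 31 arrays each reached at least 0.973.

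In brief, 4 of the 10 genes rose in untreated cultures by 240 min: mam2, mfm3, map2 and gpa1. At that time 5.89% of all probe sets were called higher. Leaving out either untreated culture kept the direction of all 4 changes, but most or all of the calls were lost. In the stressed cultures none of the 10 rose at any time by limma's test, and mfm2 fell at 30 min. Of all probe sets 0.201% were then called lower. The log2 change of mfm2 was -3.69 in stressed culture 1 and -5.14 in stressed culture 2, whose 30 min array stood apart from all others. The call of mfm2 depended on that array and was also lost with a pseudocount of 0.1. For mfm3 and mam2 the difference between the stressed and the untreated change itself passed the test at 240 min. Of all probe sets 1.09% were called lower in this difference.

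**Figure D1:**
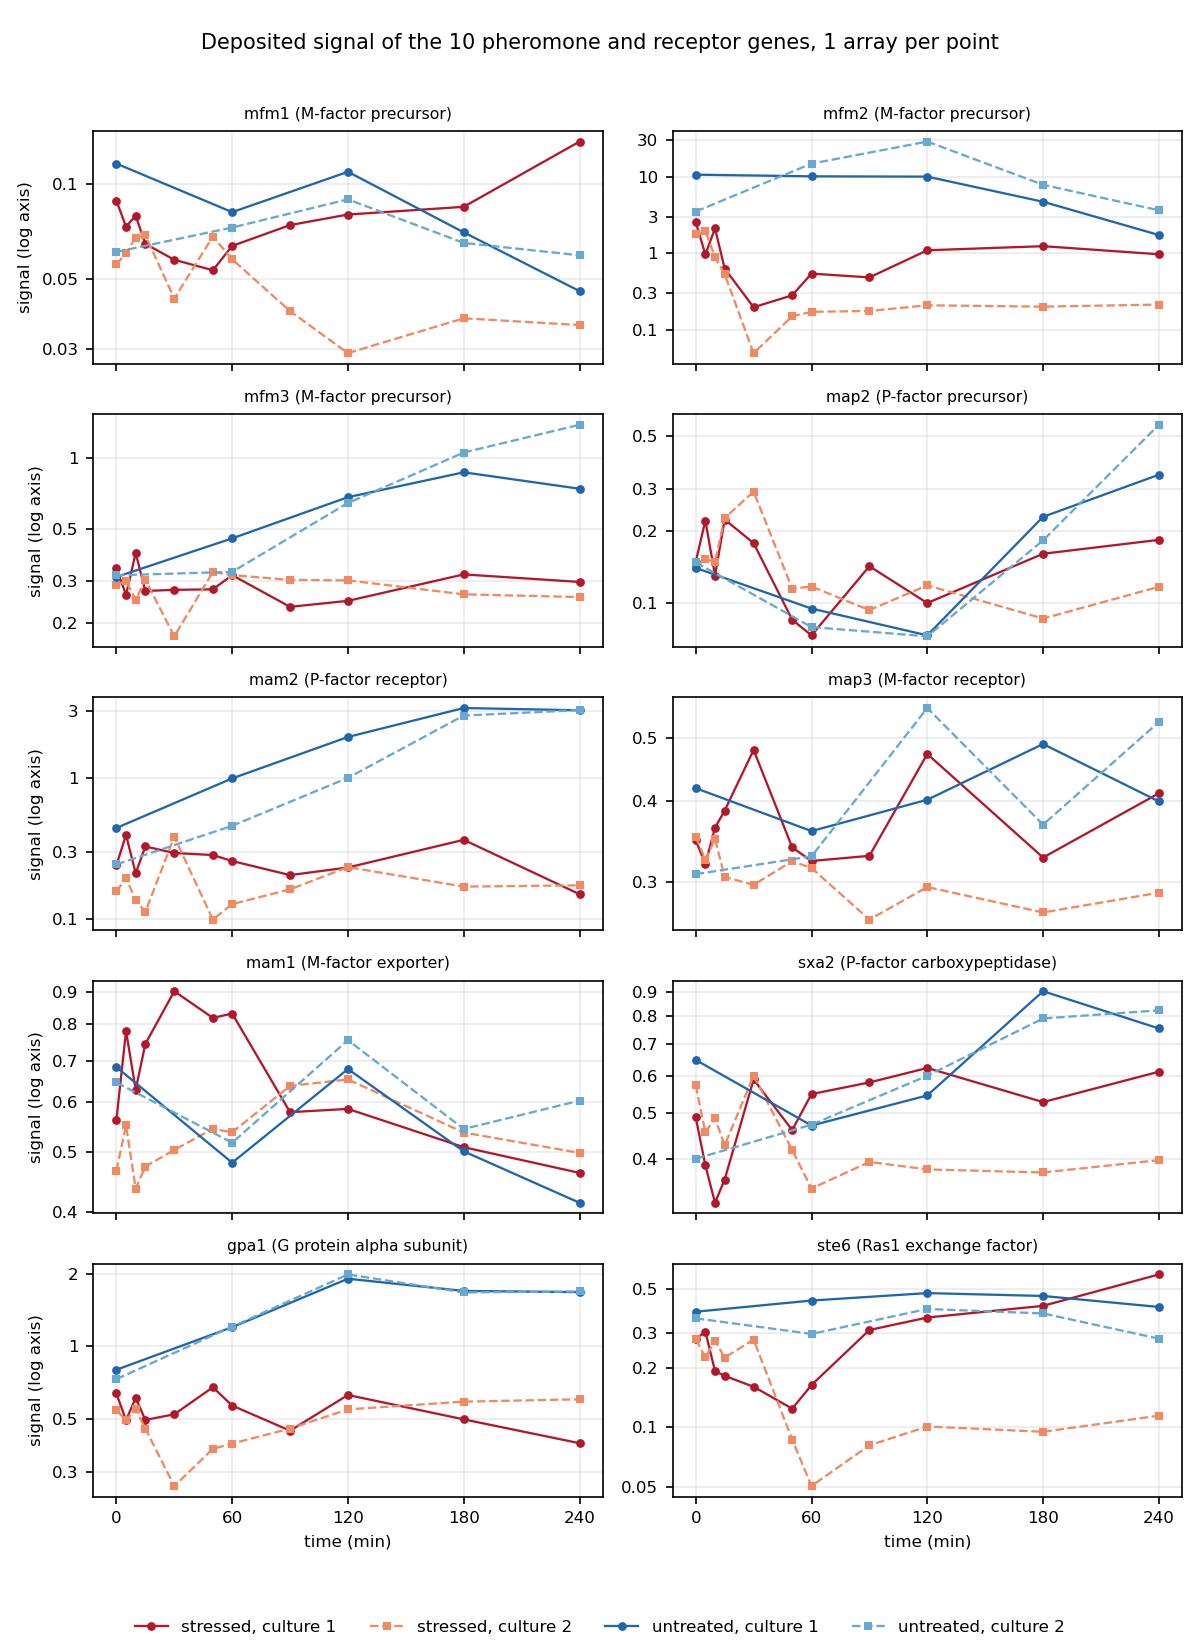
Deposited signal (log axis) against time in minutes for each of the 10 genes, 1 point per array, with stressed cultures in red and orange and untreated cultures in blue. As deposited, all 22 stressed arrays of gpa1 lie below the lowest untreated one, and how many of all probe sets lie so was not counted. By rank within the array gpa1 stands at percentile 22.2 on the stressed 50 min array of culture 1. On the untreated 0 min arrays it stands at 22.8 and 22.4. The signal of mam2 reaches 3.16 in untreated culture 1 while no stressed array exceeds 0.396.

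Among the pheromone precursors, mfm2 fell furthest after peroxide. At 0, 5, 10, 15 and 30 min its signal was 2.55, 0.964, 2.12, 0.632 and 0.198 in stressed culture 1, and 1.76, 1.95, 0.89, 0.535 and 0.0498 in stressed culture 2. At 50, 60, 90, 120, 180 and 240 min it was 0.283, 0.543, 0.485, 1.09, 1.24 and 0.971 in stressed culture 1, and 0.151, 0.172, 0.177, 0.209, 0.201 and 0.214 in stressed culture 2. Both cultures were lowest at 30 min. From 15 min on, every stressed array lay below both stressed 0 min arrays, and from 120 min on culture 1 was higher than at 90 min while culture 2 stayed near its 90 min signal. At 5 and 10 min the cultures went opposite ways, culture 1 being the lower at 5 min and culture 2 at 10 min.

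The change of mfm2 at 30 min against 0 min was -4.42 ± 0.99 on the log2 scale (SE, limma adjusted p = 0.0401), with -3.69 in culture 1 and -5.14 in culture 2. It was the only member called at that time, 1 of 10 lower, where 0.201% of all 4972 probe sets were called lower, and 0 of 10 higher, where 0.865% were. Without the 30 min array of culture 2 the change was -3.42 and the call was lost (adjusted p = 0.324). The call was lost as well with a pseudocount of 0.1, at -3.39 (adjusted p = 0.0503), without stressed culture 2 and without either untreated culture. With the culture as a block mfm2 was also called at 50 min (change -3.36, adjusted p = 0.0354, against 0.139 without the block). The same held in the F-test over the 10 stressed times (adjusted p = 0.0465, against 0.32 without the block). Of all 4972 probe sets the block fit called 52 at 50 min and 51 in the F-test. Without the block these were 15 at 50 min and 24 (0.483%) in the F-test.

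Untreated mfm2 followed another course. At 0, 60, 120, 180 and 240 min its signal was 10.6, 10.1, 10.0, 4.70 and 1.73 in untreated culture 1, and 3.504, 14.8, 28.7, 7.83 and 3.64 in untreated culture 2. Both untreated cultures were lower at 240 min than at 120 min, but they stood apart already at 0 min, and no untreated change of mfm2 passed the test. At 60 min the mean was 0.358 ± 0.262 in stressed cultures and 12.4 ± 3.32 in untreated cultures (SD, n = 2 each). The stressed change less the untreated change was then -3.795 ± 1.40 (SE) and was not called (adjusted p = 0.654). The series also started apart, at means of 2.16 ± 0.56 in stressed and 7.06 ± 5.03 in untreated cultures at 0 min (SD, n = 2 each), a difference of -1.52 ± 0.99 on the log2 scale (SE, adjusted p = 1).

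The M-factor gene mfm3 passed no test under peroxide and rose in untreated cultures. Its stressed signal ran from 0.175 to 0.395, with a median of 0.294 over 22 arrays. At 0, 60, 120, 180 and 240 min it was 0.313, 0.456, 0.684, 0.872 and 0.743 in untreated culture 1, and 0.318, 0.329, 0.646, 1.06 and 1.39 in untreated culture 2. At 0 min the stressed arrays lay on either side of the untreated ones, and from 120 min both untreated arrays lay above all 22 stressed ones. In untreated cultures mfm3 rose by 1.61 ± 0.29 at 180 min (SE, adjusted p = 0.00226) and by 1.69 ± 0.29 at 240 min (adjusted p = 0.00124), a mean signal of 1.07 ± 0.458 at 240 min and 0.315 ± 0.00361 at 0 min (SD, n = 2 each). The stressed change was -0.11 at 180 min and -0.19 at 240 min. For mfm3 the stressed change less the untreated change was -1.72 ± 0.42 at 180 min (SE, adjusted p = 0.0424) and -1.87 ± 0.42 at 240 min (adjusted p = 0.0259).

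The signal of mfm1 was low on every array and passed no test. It ran from 0.0291 to 0.136 in stressed cultures and from 0.0457 to 0.116 in untreated ones. At 240 min the stressed cultures stood at 0.136 and 0.0357, and the untreated ones at 0.0457 and 0.0593, so the groups overlapped. The genes mfm1, mfm2 and mfm3 encode the same pheromone, and whether their short messages share signal between probe sets was not tested. Over 32 arrays, which share cultures, the Pearson correlation of log2 signals was 0.61 for mfm1 with mfm2, 0.61 for mfm2 with mfm3 and 0.17 for mfm1 with mfm3.

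The P-factor gene map2 was low through the middle of the untreated series and rose at its end. At 0, 60, 120, 180 and 240 min its signal was 0.141, 0.0952, 0.0736, 0.23 and 0.344 in untreated culture 1, and 0.148, 0.0797, 0.0729, 0.183 and 0.556 in untreated culture 2. Both cultures had their lowest signal at 120 min and their highest at 240 min. The rise at 240 min was 1.60 ± 0.34 (SE, adjusted p = 0.00585). It was not called after quantile normalization between arrays (1.26, adjusted p = 0.116).

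In stressed cultures map2 ran from 0.0736 to 0.293, and the highest value was the 30 min array of culture 2. At 240 min it stood at 0.184 and 0.117 in stressed cultures and at 0.344 and 0.556 in untreated cultures, so these groups did not overlap. How many of all probe sets lay so was not counted. Set against each other, the stressed change less the untreated change at 240 min was -1.59 ± 0.49 (SE) and was not called (adjusted p = 0.119).

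Of the receptors, mam2 had the greatest rise of the 10 genes in untreated cultures and map3 passed no test. At 0, 60, 120, 180 and 240 min the signal of mam2 was 0.444, 0.999, 1.97, 3.16 and 3.04 in untreated culture 1, and 0.245, 0.46, 1.01, 2.79 and 3.05 in untreated culture 2. Both cultures were higher at each time than at the one before up to 180 min, and 180 and 240 min did not differ beyond the spread between cultures. Over 22 stressed arrays the signal ran from 0.0992 to 0.396, with a median of 0.208, and at 240 min it was 0.15 and 0.174.

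In untreated cultures mam2 rose by 3.17 ± 0.58 at 180 min (SE, adjusted p = 0.00226), a 9.01-fold higher signal, and by 3.21 ± 0.58 at 240 min (adjusted p = 0.00162). At 240 min the mean signal was 0.162 ± 0.0166 in stressed cultures and 3.05 ± 0.00502 in untreated cultures (SD, n = 2 each). The stressed change less the untreated change at 240 min was -3.48 ± 0.82 (SE, adjusted p = 0.0358). At 180 min the same difference was -2.81 ± 0.82 (adjusted p = 0.11). With the culture as a block it was called at 180 min too (adjusted p = 0.00981), and so was the untreated rise of 2.10 at 120 min (adjusted p = 0.00681, against 0.107 without the block). Over all 4972 probe sets the block raised the calls from 72 to 229 in that difference and from 56 to 158 at untreated 120 min. In these bulk samples fewer M cells and less mam2 RNA per M cell cannot be told apart, and the same holds for the other genes of 1 mating type.

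For map3 the signal ran from 0.262 to 0.48 in stressed cultures and from 0.308 to 0.557 in untreated ones. Its change lay between -0.25 and 0.11 at the stressed times and between -0.06 and 0.40 at the untreated times. At 240 min it stood at 0.411 and 0.288 in stressed cultures and at 0.399 and 0.53 in untreated cultures, and the groups overlapped.

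**Figure D2:**
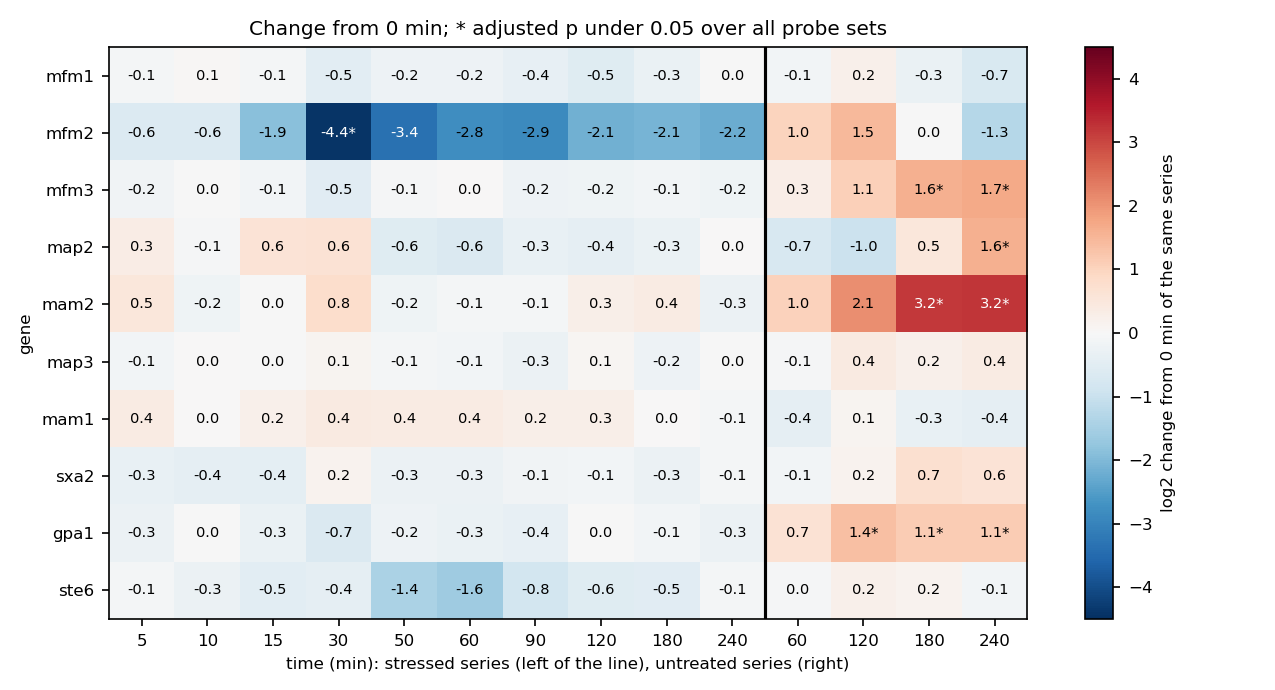
Log2 change from 0 min of the same series for each gene (rows) at each time in minutes (columns), stressed series left of the line and untreated series right of it, mean of 2 cultures; an asterisk marks an adjusted p under 0.05. The stressed part has 1 marked cell, mfm2 at 30 min, and the untreated part has 8, in mfm3, map2, mam2 and gpa1.

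The exporter gene mam1 and the carboxypeptidase gene sxa2 passed no test in either series. The signal of mam1 in stressed culture 1 was 0.562 at 0 min, 0.904 at 30 min and 0.833 at 60 min, and in stressed culture 2 it was 0.466, 0.503 and 0.537 at those times. Its mean change was 0.40 ± 0.31 at 30 min (SE, adjusted p = 0.55), and it lay mostly in culture 1. In untreated cultures mam1 ran from 0.414 to 0.755 and in both cultures it was higher at 120 min than at 60 and 180 min.

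For sxa2 the untreated cultures reached 0.904 and 0.791 at 180 min and 0.754 and 0.823 at 240 min, against 0.647 and 0.4 at 0 min. The untreated change was 0.73 ± 0.31 at 180 min (SE, adjusted p = 0.226) and 0.63 ± 0.31 at 240 min (adjusted p = 0.237). Stressed arrays ran from 0.323 to 0.622, all below the untreated arrays of 180 and 240 min as deposited. On log2 values centred on each array's median, at least 1 of the 22 stressed arrays was not below both untreated arrays of 240 min for sxa2, and the same held for map2.

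The signalling gene gpa1 rose in untreated cultures, which matched each other closely. At 0, 60, 120, 180 and 240 min its signal was 0.8, 1.2, 1.92, 1.7 and 1.68 in untreated culture 1, and 0.731, 1.21, 1.99, 1.68 and 1.69 in untreated culture 2. All untreated arrays after 0 min lay above both untreated 0 min arrays, and the order of 180 and 240 min was not the same in the cultures. The rise was 1.35 ± 0.30 at 120 min (SE, adjusted p = 0.0226), 1.15 ± 0.30 at 180 min (adjusted p = 0.0255) and 1.14 ± 0.30 at 240 min (adjusted p = 0.0184). In fits of the compared arrays alone the rises at 120 min (adjusted p = 0.17) and 240 min (adjusted p = 0.0551) were not called. In stressed cultures gpa1 ran from 0.262 to 0.676, with the lowest value on the 30 min array of culture 2. Already at 0 min the stressed cultures stood at 0.637 and 0.541 and the untreated ones at 0.8 and 0.731. The stressed change less the untreated change at 240 min was -1.41 and was called with the culture as a block (adjusted p = 0.0386), and not without it. With the block 313 of all 4972 probe sets were called in this difference, against 74 without it.

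The Ras1 exchange factor gene ste6 set the stressed cultures apart from each other. At 0, 5, 10, 15 and 30 min its signal was 0.279, 0.303, 0.192, 0.181 and 0.16 in stressed culture 1, and 0.278, 0.226, 0.273, 0.224 and 0.277 in stressed culture 2. At 50, 60, 90, 120, 180 and 240 min it was 0.124, 0.163, 0.309, 0.357, 0.41 and 0.59 in stressed culture 1, and 0.0866, 0.0505, 0.081, 0.101, 0.0948 and 0.114 in stressed culture 2. Both were lower at 50 and 60 min than at 0 min, and only culture 1 came back to its 0 min signal.

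The mean change of ste6 was -1.42 ± 0.77 at 50 min (SE, adjusted p = 0.315) and -1.61 ± 0.77 at 60 min (adjusted p = 0.263). At 60, 90, 120 and 180 min the change of ste6 was -2.46, -1.78, -1.46 and -1.55 in stressed culture 2. In stressed culture 1 it was -0.77, 0.15, 0.36 and 0.56 at those times. Untreated ste6 ran from 0.28 to 0.475, and at 240 min it was 0.59 and 0.114 in stressed cultures, against 0.404 and 0.28 in untreated cultures.

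**Figure D3:**
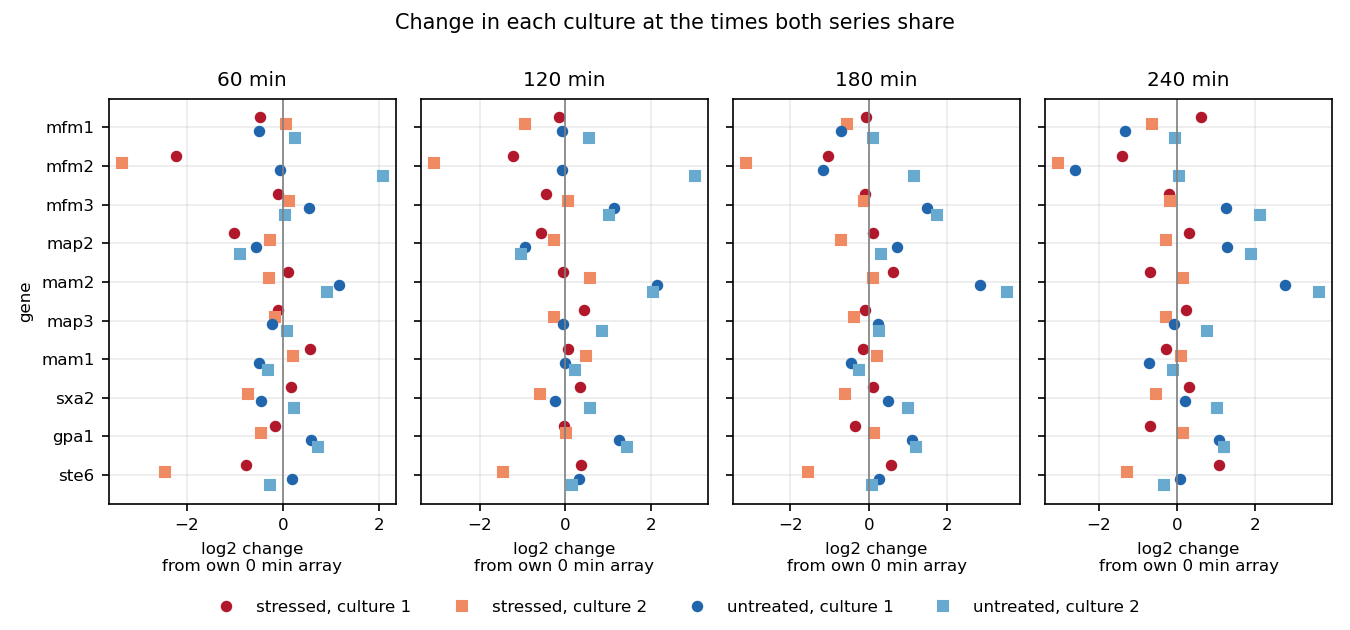
Log2 change of each gene from its own culture's 0 min array, in 4 panels for the times in minutes that both series share, with the stressed cultures above the untreated ones in each row. At 240 min the untreated points of mfm3, map2, mam2 and gpa1 all lie to the right of the stressed ones. These are the genes called higher in untreated cultures at that time, and how many of all probe sets lie so was not counted. The stressed points of ste6 lie on either side of 0.

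Counted together, 0 of the 10 genes were called in stressed cultures at any time other than 30 min in limma's test. Of all probe sets 0 were called at 5, 10 and 15 min; at 50, 60, 90, 120, 180 and 240 min the shares were 0.302%, 0.543%, 0.322%, 0.161%, 0.0402% and 0.0201%. At an unadjusted p under 0.05 there were, among the 10, 0 at 5, 10 and 15 min, 2 at 30 min (mfm2 and gpa1) and 1, mfm2, at each later time. Over all 4972 probe sets the same threshold was passed by 21, 66 and 149 at 5, 10 and 15 min, by 718 at 30 min, and by between 191 (240 min) and 950 (50 min) at the later times. In untreated cultures 0 were called at 60 min, against 0.0402% of all probe sets (2 of the 10, and 120 of 4972, at an unadjusted p under 0.05). At 120 min 1 was called higher, against 0.865% of all probe sets. At 180 min 3 were called higher, against 3.66%, and at 240 min 4 were, against 5.89%. None of the 10 was called lower in untreated cultures, where 0.261%, 1.87% and 3.96% of all probe sets were called lower at 120, 180 and 240 min.

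The median change of the 10 genes at 240 min was -0.10 in stressed and 0.49 in untreated cultures, beside -0.06 and -0.03 over all probe sets. Leaving out untreated culture 1 or 2 left 0 and 0 calls at 120 min, 0 and 0 at 180 min, and 1 and 0 at 240 min, the 1 being mfm3, with all changes in the same direction. Calls over all probe sets in the same fits numbered 4 and 12 at 120 min, 39 and 40 at 180 min, and 37 and 134 at 240 min, against 56, 275 and 490 with both cultures.

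For the stressed change less the untreated change, 0 of 10 were called at 60 and 120 min in limma's test, against 0.0402% and 0.261% of all probe sets. At an unadjusted p under 0.05 there were 2 and 4 of the 10, and 329 and 421 of all 4972. At 180 min 1 was called lower, against 1.07% of all probe sets, and at 240 min 2 were, against 1.09%. Without any 1 of the 4 cultures, that series had 1 array per group in the fit. The calls of mfm3 and mam2 were then lost, and their differences kept the same direction. With so few arrays a lost or gained call is no result about these genes. For gpa1 at 240 min the difference was -1.83 without stressed culture 2. Without the 4 stressed arrays at 5 and 10 min mfm3 was not called at 180 min (adjusted p = 0.0569), and both calls of 240 min held. At 0 min, stressed against untreated, 0 of 10 were called and 0 had an unadjusted p under 0.05, and of all 4972 probe sets 0 were called and 65 had an unadjusted p under 0.05.

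All 22 stressed arrays lay below both untreated arrays of 240 min for 5 of the 10 genes (mfm3, map2, mam2, sxa2 and gpa1), against 14.8% of all probe sets. After centring on the array medians this was so for 3 (mfm3, mam2 and gpa1), against 11.2%. At 120 min it was so for 4 of the 10, mfm2, mfm3, mam2 and gpa1, on both scales, against 9.92% and 8.33% of all probe sets. At 60 min the count was 3 (8.81% and 8.05%), and at 180 min it was 5 (17.4% and 13.6%), on both scales.

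Other genes of mating were counted from a list of 41 names, of which 31 had a probe set. In untreated cultures 1 of 31 rose at 120 min, 4 at 180 min and 5 at 240 min, where 0.865%, 3.66% and 5.89% of all probe sets were called higher, and 1 fell at 180 min, where 1.87% were called lower. Those that rose at 240 min were krp1, the protease that processes the P-factor precursor (1.63 ± 0.32, SE, adjusted p = 0.00283), scd2, a scaffold of Cdc42 (1.61 ± 0.36, adjusted p = 0.00714), cfr1, needed for cell fusion (1.93 ± 0.46, adjusted p = 0.0114), the protease gene sxa1 (1.05 ± 0.27, adjusted p = 0.0166) and the response regulator gene prr1 (0.73 ± 0.23, adjusted p = 0.05, just under the threshold). The gene of the transcription factor Ste11 rose by 1.83 ± 0.50 at 180 min (adjusted p = 0.035), and cpp1, a farnesyltransferase subunit gene, fell by 1.21 (SE 0.32, adjusted p = 0.0309). The median change of the 31 at 240 min was 0.37 in untreated and 0.00 in stressed cultures.

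In stressed cultures 1 of the 31 was called at any time: ste4, whose product links Ras1 signalling to the kinase Byr2. It fell by 1.91 on the log2 scale at 30 min (SE 0.45, adjusted p = 0.0419), where 0.201% of all probe sets were called lower. Its signal then was 0.378 in culture 1 and 0.118 in culture 2, against 0.899 and 0.698 at 0 min. For ste11 the 0 min signals were 1.58 and 1.495, the 30 min signals 0.391 and 0.344, and the 60 min signals 0.94 and 0.326. Its change at 30 min was -2.07 ± 0.50 (SE, adjusted p = 0.0509), just over the threshold. The kinase genes byr1 and spk1 of the same cascade had changes of -1.94 ± 0.57 (adjusted p = 0.102) and -1.37 ± 0.46 (adjusted p = 0.162) at 30 min. The stressed change less the untreated change was called lower for krp1 at 180 min (-2.26 ± 0.45, SE, adjusted p = 0.0151), where 1.07% of all probe sets were.

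**Figure D4:**
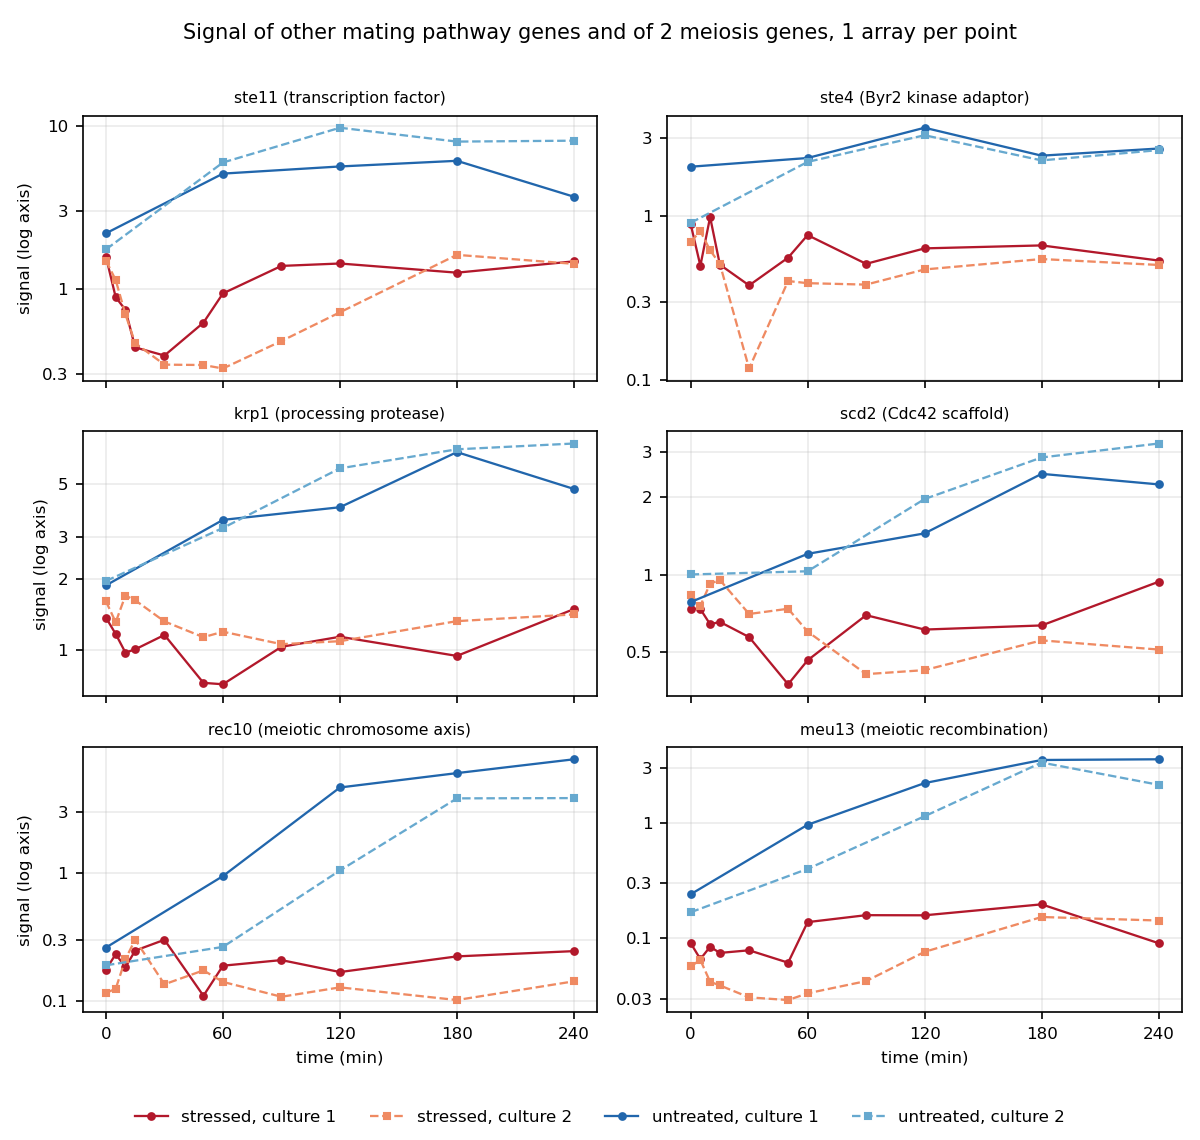
Deposited signal (log axis) against time in minutes for 4 other mating genes and 2 meiosis genes, 1 point per array, stressed cultures in red and orange and untreated cultures in blue. In both stressed cultures ste11 is lower at 30 min than at 0 min, and krp1, scd2, rec10 and meu13 are higher at 240 min than at 0 min in both untreated cultures.

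A list of 20 meiosis and sporulation genes stood for cells past mating in a homothallic culture. Whether each of them marks only such cells was not tested. Of the 20 genes 3 rose in untreated cultures at 120 min, 5 at 180 min and 5 at 240 min. At those times 0.865%, 3.66% and 5.89% of all probe sets were called higher. None of the 20 was called lower, where 0.261%, 1.87% and 3.96% of all probe sets were, and the others passed no test at these times. Those at 240 min were rec10, of the meiotic chromosome axis (4.61 ± 0.66, SE, adjusted p = 0.000217), the recombination gene meu13 (3.77 ± 0.70, adjusted p = 0.00204), and the transcription factor genes cuf2 (3.36 ± 0.53, adjusted p = 0.000542), atf31 (2.86 ± 0.52, adjusted p = 0.00184) and mei4 (1.65 ± 0.31, adjusted p = 0.00205). The summed signal of the 20 ran from 7.97 to 12.7 over stressed arrays and from 10.0 to 25.9 over untreated ones, where it was 25.9 and 18.3 at 240 min and 11.7 and 11.1 at 0 min. To that sum spo14 alone gave 2.81 to 6.24 on stressed arrays and 2.95 to 3.98 on untreated ones. The untreated rise of the sum lay largely in rec10 and meu13. From 0 to 240 min rec10 went from 0.262 to 7.70 in untreated culture 1 and from 0.19 to 3.84 in untreated culture 2. For meu13 the signal went from 0.24 to 3.54 and from 0.168 to 2.13. None of the 20 was at 0 on any array, nor was any other probe set, so this does not tell whether they were expressed.

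In stressed cultures mei4 rose at 30 min (1.42 ± 0.31, SE, adjusted p = 0.035) and mei2, a regulator of meiotic entry, fell by 2.26 (SE 0.54, adjusted p = 0.0482). Of all probe sets 0.865% were then called higher and 0.201% lower. In the fit of the compared arrays alone 0 of all probe sets were called at 30 min, so the calls of mei4, mei2 and ste4 were lost. The signals of mei4 were low, 0.0912 and 0.0544 at 0 min and 0.157 and 0.226 at 30 min. Those of mei2 were 0.269 and 0.381 at 0 min and 0.0675 and 0.0664 at 30 min. In each pair the second value is of culture 2, whose 30 min array stood apart from all others. Between the series, the stressed change less the untreated change was called lower for rec10 at 180 and 240 min (-4.34 ± 0.93 and -4.22 ± 0.93, SE, adjusted p = 0.0234 and 0.0259) and for cuf2 at 240 min (-3.28 ± 0.75, adjusted p = 0.0305). Of all probe sets 1.07% and 1.09% were called lower in this difference at 180 and 240 min. The part of meiotic cells in the changes of the pheromone and receptor genes was not tested.

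Among themselves the 10 genes did not share 1 course. Over 32 arrays the Pearson correlation of log2 signals was 0.87 for mam2 with gpa1, 0.86 for mfm3 with gpa1 and 0.85 for mfm3 with mam2, the highest among the pairs. Against the mean profile of the 10, the other genes with the highest correlation were ppr3, a pentatricopeptide repeat protein gene (0.96), the protein kinase gene ppk33 (0.96), mbx1, a MADS-box transcription factor gene (0.96), the protein translocation gene sss1 (0.95) and smg1 (0.95). Against mfm2 they were the centromere gene cnp3 (0.94), the Golgi gene cog5 (0.91) and ste4 (0.91). Within the series these values were lower for some: cnp3 had 0.96 over 22 stressed and 0.52 over 10 untreated arrays, and ste4 had 0.84 and 0.33. The arrays share cultures and the offset between the series, so these values only describe likeness.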

How the data were processed

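Total RNA was extracted with hot phenol, amplified and biotin-labelled with a 3′ IVT kit and read on single-colour Affymetrix arrays, per the labels' protocols. The authors deposited 1 signal per probe set and array, as a linear value between 0.0029 and 64.6. Details of background correction, summarisation and scaling were not given in the sources used here. Precision is limited by having 2 arrays per group.

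Sample titles gave the series, the time and the culture number. Symbols came from the platform annotation, which gave 1 symbol for 2903 of 4972 probe sets, several for 16 and none for 2053 (unnamed here). By gene ID, 2900 matched RefSeq (assembly ASM294v3). Coordinates and sequences were not used here.

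Signals were log2-transformed with no pseudocount, since none was at or below 0. All 32 arrays entered 1 fit with limma 3.58.1 (R 4.3.3), which held a mean for each series and time (16 residual and 3.23 prior degrees of freedom). All 4972 probe sets were tested in 19 comparisons, with Benjamini-Hochberg adjustment within each and a threshold of 0.05, and an F-test covered the 10 stressed times. In each series the titles give 1 culture per number, so arrays of 1 number are 1 culture followed over time, and between the series the numbers mean nothing. Between times, the difference of culture 2 less culture 1 over all probe sets had a median correlation of 0.259 in the stressed series (lowest -0.369) and 0.707 in the untreated series (lowest 0.362). P-values measure the spread between the 2 cultures at the same series and time, pooled over all series and times. The main fit had no culture term, so repeated arrays of 1 culture entered it as if independent.

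Named genes were the 10 members, mating and meiosis list genes past the threshold or with the lowest F-test p (4 and 2), and the probe sets with 1 symbol most like the members' mean profile (5) or mfm2 (3). Members, lists and the 11 other settings were chosen with earlier results of these data known, and 1 setting was added after the values were seen.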

Additional observations from a re-analysis of the deposited data

Results flagged for a closer look

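The change under peroxide and the change without it differed by a test of the difference itself for mfm3 at 180 min (-1.72, adjusted p = 0.0424), for mfm3 at 240 min (-1.87, adjusted p = 0.0259) and for mam2 at 240 min (-3.48, adjusted p = 0.0358), each a log2 change in stressed cultures less that in untreated cultures in limma's fit. Both stressed cultures of mam2 stood at 0.15 and 0.174 at 240 min and both untreated cultures at 3.04 and 3.05. Over the 11 other settings run for each, the difference ran from -1.85 to -1.44 with adjusted p from 0.022 to 0.326 for mfm3 at 180 min, from -2.32 to -1.43 with adjusted p from 0.0119 to 0.263 for mfm3 at 240 min, and from -3.91 to -3.04 with adjusted p from 0.00143 to 0.251 for mam2.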

How the results depend on the processing

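The 12 changes called for the 10 genes kept their direction in every setting that gave a value. With the culture as a replicate block all 12 stayed called, and further calls came: 1 at stressed 50 min (main 0), 2 at untreated 120 min (main 1), 2 in the difference of changes at 180 min (main 1) and 1 in the F-test over stressed times (main 0). The block changed no other call beyond gpa1 in the difference at 240 min. Over all probe sets the block also gave more calls: 52 at stressed 50 min (main 15) and 158 at untreated 120 min (main 56). In the differences it gave 229 at 180 min (main 72) and 313 at 240 min (main 74), and in the F-test 51 (main 24). With the arrays of the compared groups alone there were 0 calls at stressed 30 min (main 1), 2 at stressed 50 min (mfm2 and ste6), 0 at untreated 120 min, 3 at untreated 240 min (gpa1 lost, main 4) and 0 in the differences at 180 and 240 min (main 1 and 2). Over all probe sets these fits gave 0 calls at stressed 30 min (main 53) and 560 at stressed 50 min (main 15). They used fewer arrays, and the cause of these shifts was not tested. With a pseudocount of 0.1 there were 0 at stressed 30 min, 2 at untreated 120 min and 2 in the difference at 180 min. Quantile normalization gave 2 at untreated 120 min, 1 in the difference at 180 min (mam2, not mfm3) and 1 at 240 min. Median centring gave 0 in the difference at 180 min. It moved the median of all probe sets at 0 min, stressed against untreated, to 0.03, against -0.10 as deposited. Leaving out the dimmest 20% of probe sets removed 8 of the 10 genes, all but mfm2 and gpa1, so it gave 1 at untreated 180 min, 1 at 240 min and 0 in both differences. Without the stressed 30 min array of culture 2 there were 0 at stressed 30 min, and without the stressed arrays at 5 and 10 min 0 in the difference at 180 min. Leaving out 1 culture at a time left 1 array per group in that series. Calls of the 10 genes were both lost and gained in these fits, and they are no result about these genes. Over all probe sets, untreated 240 min had 490 calls, and 950 with the block.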
